A study of Mus musculus with 57 samples.

Results

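The comparison described here sets whole kidneys of 23-week-old NZB/W mice that were still free of proteinuria (n = 11) against whole kidneys of 16-week-old prenephritic NZB/W mice (n = 8). The members were all 16475 genes measured in the NZB/W table, in 19 arrays chosen by the age and proteinuria status in their labels, out of 35 NZB/W arrays and 57 arrays of the series. NZB/W mice are the hybrid of the NZB and NZW strains, which develop lupus nephritis without treatment. Neither group carried a transgene, a deletion or a drug, the labels give no sex, and no label says that kidneys were pooled. Total RNA was hybridized to Affymetrix arrays, and each value is an RMA level (robust multi-array average) on the log2 scale, so that higher values mean more signal on a log scale. The 6 kidneys at 23 weeks with proteinuria onset and the 10 nephritic kidneys at 36 weeks entered the fit and serve as later stages.

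In lupus, B cells that recognise self antigens mature into plasma cells, which secrete antibody. An antibody pairs heavy chains (mu for IgM, gamma for IgG, alpha for IgA) with light chains (kappa or lambda), and the J chain joins IgM and IgA units into polymers. Antibody deposited in the glomerulus activates complement and draws in phagocytes, and proteinuria follows when the filtration barrier fails. Whole-kidney RNA mixes all of these cells with tubules, vessels and any tissue attached to the organ. A lower level in such a mixture can stem from fewer cells of a type or from less RNA per cell, which cannot be told apart here.

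Labelled tissue and measured genes matched in kind. The proximal tubule phosphate transporter gene Slc34a1 had median levels of 13.26 at 23 weeks and 13.25 at 16 weeks, and the thick ascending limb gene Umod 13.51 at 23 weeks and 13.70 at 16 weeks. Genes of the adrenal gland and of fat were also present in both groups and are described with their own values further on. Median levels of the 35 arrays lay between 6.97 and 7.06. The titles carry stems whose meaning the labels do not give, and no stem holds kidneys of both the 23-week non-proteinuric and the 16-week group. At 23 weeks the stems were Q2 (replicates 1 to 5), Q1 (6 and 9) and Q3 (7, 8, 10 and 11). At 16 weeks they were red (replicate 1), YM (2 and 3), NZBW (4) and RA5 (5 to 8). Kidneys with onset at 23 weeks share a stem with each group, 2 with Q1 and 1 with RA5.

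The genes that passed the test before proteinuria all encode parts of antibodies. By limma with Benjamini-Hochberg adjustment over 16475 genes, 3 genes were higher at 23 weeks, 0.0182% of those tested, and 0 were lower. At an unadjusted p under 0.05, 477 genes (2.9%) were higher and 486 (2.95%) lower, 963 (5.85%) in all. The median standard error of a change was 0.0722. None of the 3 genes passed with title stem in the fit, and with stem as a fixed term their changes turned below 0.

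Igkc encodes the constant region of the kappa light chain, which most mouse antibodies carry. In the 23-week kidneys its lowest, median and highest levels were 11.42, 13.20 and 13.68, against 8.97, 9.55 and 12.90 in the 16-week kidneys. All 11 kidneys at 23 weeks lay above the 16-week mean, and 6 lay above every 16-week kidney. The groups overlapped through 16-week replicate 1, since the next highest 16-week kidney stood at 9.97. The change was 2.93 ± 0.41 (SE), a 7.64-fold difference (adjusted p = 0.00046 by limma; exact two-sided permutation p = 9.26e-05).

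Jchain, the gene of the joining chain, ran from 10.07 through a median of 11.82 to 12.47 at 23 weeks, against 8.39, 9.10 and 11.27 at 16 weeks. Again 16-week replicate 1 alone reached into the 23-week range. The change was 2.34 ± 0.39 (adjusted p = 0.00808 by limma; exact permutation p = 0.000318).

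Igha, the alpha heavy chain gene of IgA, had 10.53, 12.19 and 12.72 as its lowest, median and highest levels at 23 weeks, against 9.12, 9.67 and 11.78 at 16 weeks. Of the 23-week kidneys, 7 lay above every 16-week kidney. The change was 1.96 ± 0.35 (adjusted p = 0.0145 by limma; exact permutation p = 0.000225). It missed the threshold without 16-week replicate 2, 4 or 6 (adjusted p = 0.051, 0.061 and 0.071), and without 16-week replicate 3 there were 5 calls in all.

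The 3 genes were compared kidney by kidney. The Q2 kidneys held the upper end at 23 weeks, with Igkc between 13.20 and 13.68 and Igha between 12.29 and 12.72. The Q1 kidneys had Igkc at 11.42 and 11.78, and the Q3 kidneys 11.73, 12.81, 12.90 and 13.42. Within the 23-week group the widest gap in Igkc, 1.04, separated 3 kidneys (replicates 6, 7 and 9) from the 8 others. Over those 8, Igkc and Jchain had a Pearson r of 0.926 and a Spearman rho of 0.952 (exact permutation p = 0.000744 and 0.00114, adjusted 0.00893 and 0.0137 over 12 relations). Without the 2 kidneys farthest from the median, r was 0.880. Igkc and Igha had r = 0.843 and rho = 0.738 (exact p = 0.0031 and 0.0458, adjusted 0.0186 and 0.183), and r fell to 0.462 without those 2 kidneys, so over these 8 that relation rests on them. The 8 were set by a cut on Igkc, which narrows its range. Over all 11 kidneys r was 0.917 and rho 0.873 (p = 8e-05 and 0.00096 by 100000 permutations, adjusted 0.00048 and 0.00576). Without replicates 6 and 7, the farthest from the median of the 11, r was 0.940, with replicate 9 still included. Over the 8, Igkc had r = 0.03 and rho = 0.05 with Ighm (exact p = 0.938 and 0.935, adjusted 0.943 and 0.963). With the B cell gene Cd79b it had r = 0.39 and rho = 0.57 (exact p = 0.337 and 0.151, adjusted 0.577 and 0.453). Over all 11, r was 0.826 with Ighm and 0.890 with Cd79b (adjusted p = 0.00921 and 0.00276 by 100000 permutations), rho being 0.627 and 0.827 (adjusted 0.106 and 0.0104). At 16 weeks, over the 7 kidneys other than replicate 1, Igkc had r = 0.12 with Jchain and 0.64 with Igha (exact permutation p = 0.798 and 0.118, adjusted 0.943 and 0.354), rho being 0.07 and 0.50 (exact p = 0.906 and 0.267). In those 7, r was -0.03 with Ighm and 0.34 with Cd79b (exact permutation p = 0.943 and 0.453, adjusted 0.943 and 0.679).

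The changes of these genes depended on the title stems. With title stem as a random block, Igkc differed by 2.11, Jchain by 1.47 and Igha by 1.19, all at an adjusted p of 0.9999 (0.00046 to 0.0145 without the block), and 0 of 16475 genes passed (399 at an unadjusted p under 0.05). Over all settings the adjusted p of Igkc ran from 4.03e-07 to 0.9999. With stem as a fixed term in the fit over 4 groups, a setting chosen after the data were seen, Igkc differed by -0.19 ± 0.61, Jchain by -1.49 ± 0.72 and Igha by -1.48 ± 0.55 (SE; adjusted p = 0.9999 each by limma). That fit called 2 other genes, Card10 and Cbx6, named after their values were seen.

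The fixed-term value rests on the 9 kidneys of Q1 and RA5, joined through the kidneys with onset. In Q1, Igkc stood at 13.20 and 14.51 in the 2 kidneys with onset, against 11.42 and 11.78 in the 2 without proteinuria. In RA5 it stood at 11.47 in the 1 kidney with onset, against 8.97 to 9.75 in the 4 kidneys at 16 weeks. The 23-week minus onset difference within Q1 was thus -2.26 and the onset minus 16-week difference within RA5 2.07. The 23-week Q1 kidneys were among those with low Igkc, as was Q3 replicate 7 at 11.73. The Q2 and Q3 kidneys do not enter the fixed-term value. Both 23-week Q1 kidneys lay above all 4 RA5 kidneys at 16 weeks for Igkc, a comparison that crosses stems.

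**Figure D1:**
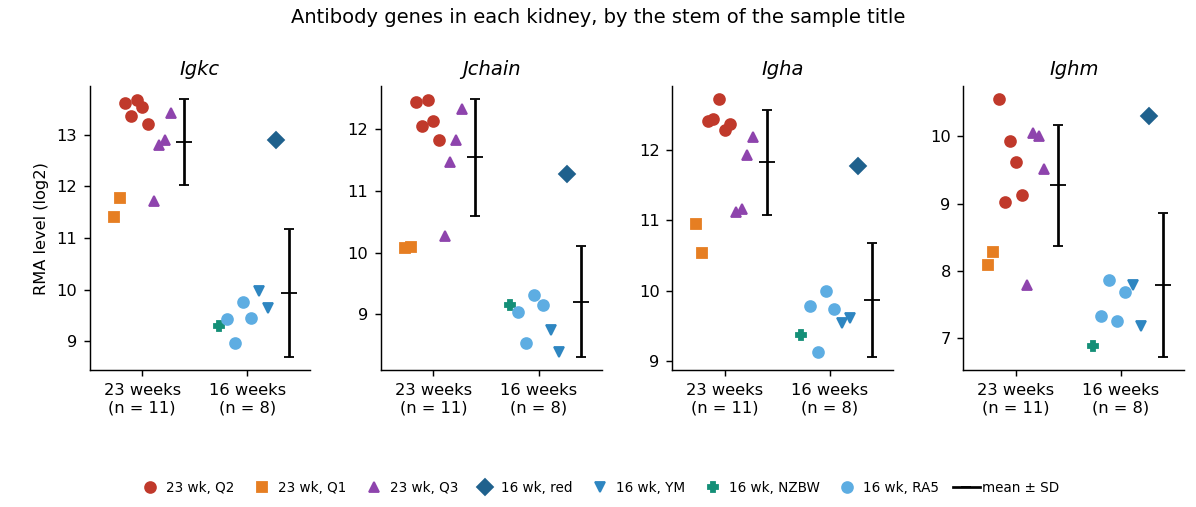
RMA level (log2, vertical axis) of Igkc, Jchain, Igha and Ighm in the 11 kidneys at 23 weeks (left in each panel) and the 8 at 16 weeks (right). Each symbol is a kidney, its shape and colour the title stem, and bars give the mean ± SD. Igkc averaged 12.86 ± 0.83 at 23 weeks and 9.93 ± 1.24 at 16 weeks, and the single 16-week kidney of stem red sits at 12.90.

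The list of plasma cell genes and immunoglobulin chains held 22 measured genes, of which 3 passed the test, 0.0182% of all genes doing so in that direction. A further 5 were higher at an unadjusted p under 0.05, making 8 of 22 against 2.9% of all genes, and none was lower. In all, 20 of 22 changes were above 0, with a median of 0.54 against 0.0077 over all genes. With title stem as a random block 0 were called, 3 were higher at an unadjusted p under 0.05 and the median was 0.12. With stem as a fixed term 20 of 22 were below 0, 2 at an unadjusted p under 0.05, with a median of -0.43. The list was drawn up with results of these kidneys known, so its direction is a description.

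Among the heavy chains, Ighm, the mu chain gene of IgM, ran 7.79, 9.52 and 10.55 at 23 weeks (lowest, median, highest), against 6.88, 7.51 and 10.30 at 16 weeks, and the groups overlapped. Its change of 1.48 ± 0.42 did not pass (adjusted p = 0.803 by limma). The gamma chain genes had changes of 1.22 ± 0.46 for Ighg3 (p = 0.0119 unadjusted), 1.04 ± 0.44 for Ighg2b (p = 0.0229) and 0.96 ± 0.49 for Ighg1 (p = 0.0596). Ighg2c read near the low end of the array in both groups, with medians of 4.71 at 23 weeks and 4.61 at 16 weeks.

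Among the light chains, the lambda constant gene Iglc2 had a median of 8.59 at 23 weeks against 6.86 at 16 weeks, a change of 1.23 ± 0.40 (p = 0.00426 unadjusted). The kappa variable gene Igkv6-15, one of the segments that give kappa chains their antigen contact, had medians of 6.26 at 23 weeks and 4.76 at 16 weeks and a change of 1.27 ± 0.50 (p = 0.0159). Apart from replicate 1 at 6.79, its 16-week levels of 4.08 to 5.04 were near the low end of the array. Antibody genes of one class share much of their sequence, so single members of these families are uncertain.

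Genes that mark the plasma cell without encoding antibody differed less. Mzb1, a chaperone of antibody assembly in the endoplasmic reticulum, and Pou2af1, a coactivator of immunoglobulin transcription, each had a change of 0.54 (SE 0.31 and 0.41). The regulators Xbp1 (0.04 ± 0.11), Prdm1 (0.07 ± 0.12) and Irf4 (0.05 ± 0.11) and the surface genes Sdc1 (0.09 ± 0.10) and Tnfrsf17 (-0.0048 ± 0.13) had changes within their standard errors. Xbp1 had medians of 10.94 and 10.92 at 23 and 16 weeks, far above those of Irf4 on this array (5.39 and 5.34), although levels of different probe sets are not comparable as amounts.

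At 36 weeks most of the list was higher still. From 23 weeks without proteinuria to 36 weeks, 17 of 22 members rose and 0 fell (adjusted p under 0.05, limma), where 9.52% of all genes rose and 13.5% fell. The median change was 1.15, against -0.017 over all genes. No 36-week kidney shares a title stem with another group, so stage and stem cannot be told apart for this step. Ighm rose by 2.12 ± 0.39 (adjusted p = 0.000178), Ighg2b by 2.13 ± 0.41 (0.000273), Ighg3 by 2.03 ± 0.43 (0.000767), Jchain by 1.37 ± 0.37 (0.00642) and Igha by 1.34 ± 0.33 (0.00283). Igkc stood 1.03 ± 0.39 higher, which missed the threshold (adjusted p = 0.0516). Sdc1, Tnfrsf17, Irf4 and Xbp1 rose as well, by 0.46, 0.53, 0.50 and 0.35 (adjusted p = 0.000656, 0.00205, 0.000555 and 0.0133).

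From 23 weeks without proteinuria to 23 weeks with onset, 0 of 22 members passed the test, where 1.71% of all genes rose and 0.388% fell, with a list median of 0.36 against -0.025 over all genes. The early step was larger than the later one for Igkc, by 1.91 ± 0.68 (unadjusted p = 0.00804, adjusted p = 0.147), and for Ighg2b it was smaller, by -1.10. The test of that difference was passed by 0 of 22 members and by 42 genes (0.255%) upward and 57 (0.346%) downward over the array. The comparisons share the 23-week kidneys.

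**Figure D2:**
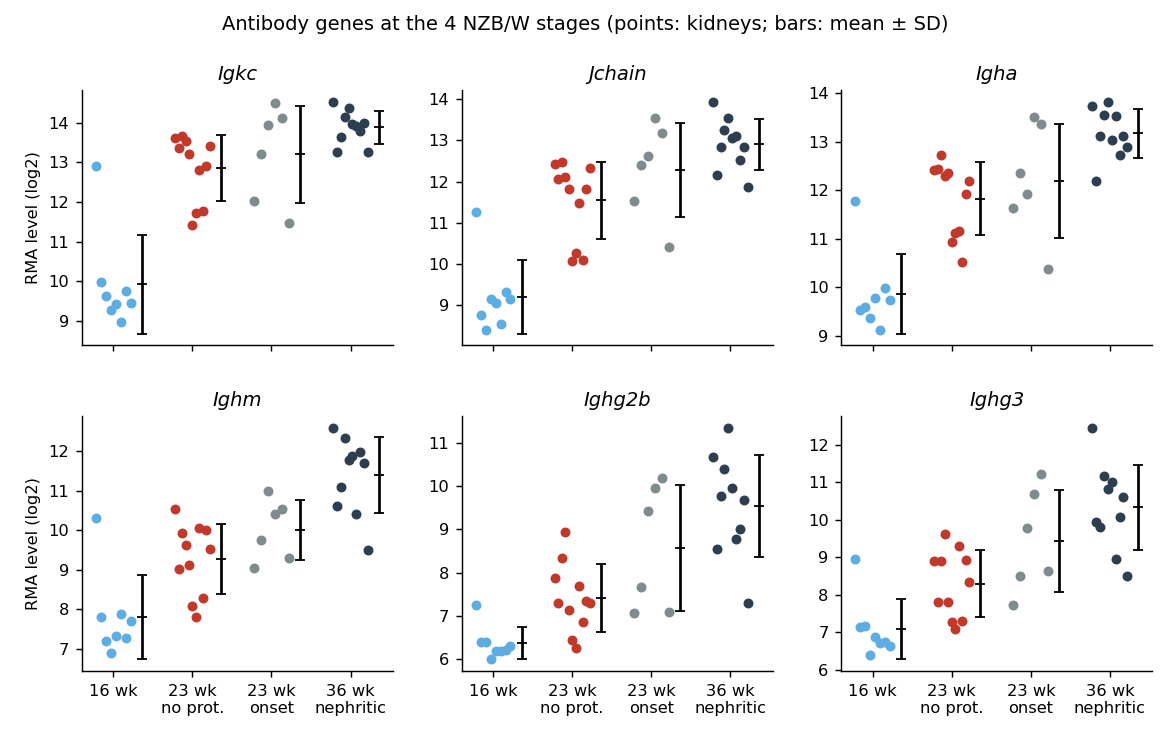
RMA level (log2) of 6 antibody genes at 16 weeks (n = 8), 23 weeks without proteinuria (n = 11), 23 weeks with onset (n = 6) and 36 weeks nephritic (n = 10). Points are kidneys and bars the mean ± SD. Igkc averages 9.93, 12.86, 13.21 and 13.89 in that order, while Ighg2b spreads widest at onset.

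No other immune list contributed a gene that passed. Of 16 B cell genes 15 were above 0 with a median of 0.09, and of 19 T cell genes 17 were above 0 with a median of 0.08, where 54.2% of all genes were. None reached an unadjusted p of 0.05 (2.9% of all genes did so upward), while in a fit to the 2 ages alone 6 of 16 and 4 of 19 did (6.36% of all genes). With title stem as a random block 9 of 16 B cell genes were above 0, with a median of 0.0071. Cd37, a B cell tetraspanin, had a change of 0.27 ± 0.14 and Cd4, the coreceptor of helper T cells, one of 0.15 ± 0.09. Among 23 genes of mononuclear phagocytes the median was 0.10, or -0.050 with that block, and only Lyz2, the lysozyme of macrophages, passed the unadjusted threshold. Lyz2 ran 8.88, 9.50 and 10.17 at 23 weeks against 8.60, 8.91 and 9.31 at 16 weeks, with overlap (0.58 ± 0.24, p = 0.0217, adjusted p = 0.82).

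Of 12 genes of MHC class II presentation, 11 were above 0 with a median of 0.16, where 54.2% of all genes were above 0. Cd74, the invariant chain that guides class II molecules, had medians of 10.60 at 23 weeks and 10.33 at 16 weeks (0.39 ± 0.20, p = 0.0614). Class II H2-Ab1 had 9.76 at 23 weeks and 9.46 at 16 weeks (0.31 ± 0.20). Of 26 interferon-response genes 17 were below 0 and none passed either threshold, with a median of -0.066. The viral RNA sensor gene Ifih1 had a change of -0.23 ± 0.12 (p = 0.0647). Tnfsf13b, which encodes the B cell survival factor BAFF, had medians of 6.20 at 23 weeks and 5.93 at 16 weeks (0.24 ± 0.17, p = 0.157).

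**Figure D3:**
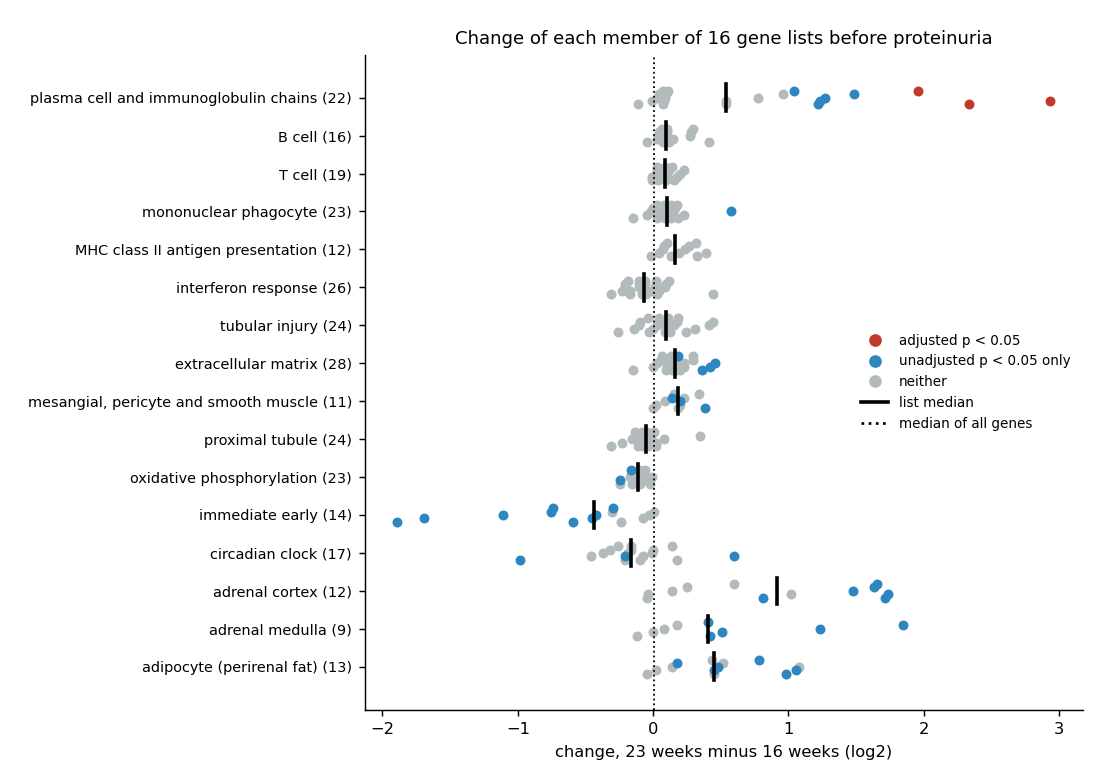
Change at 23 weeks minus 16 weeks (log2, horizontal axis) of every measured member of 16 gene lists, with the number of members in brackets. Red points passed an adjusted p of 0.05, blue ones only an unadjusted p of 0.05, thick bars are list medians and the dotted line is the median of all genes, 0.0077. The 3 red points are antibody genes, and the adrenal, fat and immediate early lists hold most of the other blue points.

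A fit to the 2 ages alone, in which the nephritic kidneys do not add to the estimate of spread, had 19 genes past the threshold, 17 higher (0.103%) and 2 lower (0.0121%). At an unadjusted p under 0.05 it had 1048 higher (6.36%) and 1152 lower (6.99%). Without 16-week replicate 1 the same fit had 81 calls, a setting chosen after the data were seen. Igkc, Jchain and Igha were among the 19. The matrix list had 1 of 28 members called there (Bgn), the chemokine list 1 of 21 (Cx3cl1) and the mesangial and endothelial lists 0 of 11 and 0 of 14. Prelp and Bgn encode small proteoglycans of the extracellular matrix. Prelp ran 8.04, 8.29 and 8.46 at 23 weeks against 7.52, 7.73 and 8.11 at 16 weeks, and 9 of 11 kidneys lay above every 16-week kidney. Its change was 0.48 ± 0.10 (adjusted p = 0.1 by limma over 4 groups, 0.00554 over 2). Bgn ran 10.452, 10.66 and 10.85 at 23 weeks against 9.93, 10.22 and 10.446 at 16 weeks, with no overlap. Its change was 0.42 ± 0.13 (adjusted p = 0.82 over 4 groups, 0.018 over 2).

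Spry1, an inhibitor of growth factor signalling through receptor tyrosine kinases, ran 8.55, 8.64 and 8.74 at 23 weeks against 8.04, 8.31 and 8.52 at 16 weeks. The groups did not overlap, and the change was 0.36 ± 0.15 (adjusted p = 0.82 over 4 groups, 0.0115 over 2). Cx3cl1, the chemokine fractalkine, which binds the receptor of patrolling monocytes and macrophages, ran 8.45, 8.59 and 8.83 at 23 weeks against 8.10, 8.29 and 8.48 at 16 weeks (0.37 ± 0.14). The other genes above in that fit were C1qtnf2 and Slc25a30, the xenobiotic oxidase gene Cyp1b1, the transferrin gene Trf, the tyrosylprotein sulfotransferase gene Tpst1, Hoxc6, Ap2b1, Mbd6, the guanylate cyclase subunit gene Gucy1a1 and the scavenger receptor family gene Scarf2. Their changes lay between 0.21 for Scarf2 and 0.49 for Slc25a30. The 2 lower genes were Hcfc2 (-0.26) and Spata24 (-0.25).

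Every 23-week kidney lay above every 16-week kidney for 5 genes (0.0303%), namely Bgn, Cyp1b1, Scarf2, Kmt5c and Spry1, and below for 1 (0.00607%), Dbf4. Of the fit over 4 groups, St3gal5, the GM3 ganglioside synthase gene, came nearest to the threshold after the antibody genes, at 0.29 ± 0.06 (adjusted p = 0.0542). St3gal5 and Prelp stood 0.17 and 0.22 lower at 36 weeks than at 23 weeks. The early change minus the later one was 0.46 for St3gal5 (adjusted p = 0.0244 by limma) and 0.70 for Prelp (adjusted p = 0.0398). Both genes were picked for a small p of the early change, and the same 23-week kidneys enter both steps. A difference above 0 thus follows in part from that choice, and these p-values are no separate support. For Bgn and Cyp1b1 the later change was 0.51 and 0.54, close in size to the early one.

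The other genes of smallest p above 0 were Sap25 (0.30 ± 0.07), the methionine sulfoxide reductase gene Msrb3 (0.19 ± 0.05), the imprinted gene Nnat (0.54 ± 0.14) and Adrb3, the beta adrenergic receptor of fat cells (0.51 ± 0.13). Adrb3 ran 6.70, 7.03 and 7.31 at 23 weeks against 6.11, 6.37 and 7.10 at 16 weeks, with overlap. Below 0, the growth factor gene Pdgfc, whose product acts on mesenchymal cells, ran 8.16, 8.58 and 8.92 at 23 weeks against 8.70, 9.13 and 9.66 at 16 weeks (-0.46 ± 0.11, p = 0.000281). In 16-week replicates 1 to 3 Pdgfc stood at 8.79, 8.82 and 8.70, inside the 23-week range, and in replicates 4 to 8 at 9.07 to 9.66. Plau, the urokinase plasminogen activator made by renal tubules, ran 6.13, 6.31 and 6.86 at 23 weeks against 6.56, 6.79 and 7.21 at 16 weeks (-0.47 ± 0.12, p = 0.000525), and 10 of 11 kidneys lay below every 16-week kidney. Ripk4 (-0.46), Wdr20 (-0.27) and Zfp189 (-0.26) were the others. None passed adjustment (0.412 to 0.803). Ripk4 also split by kidney, at 8.08, 7.93 and 8.29 in 16-week replicates 1 to 3 and 8.41 to 8.85 in replicates 4 to 8. Plau split the other way, with 6.86 to 7.21 in replicates 1 to 4 and 6.56 to 6.72 in the RA5 kidneys.

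Matrix genes as a list had 27 of 28 changes above 0 and a median of 0.16, where 54.2% of all genes were above 0. In the fit over 4 groups 4 were higher at an unadjusted p under 0.05 (2.9% of all genes), and in the fit of 2 ages 11 (6.36% of all genes). Loxl1, a collagen and elastin crosslinking enzyme, had medians of 7.77 at 23 weeks and 7.46 at 16 weeks (0.46 ± 0.17, p = 0.0129). All 11 genes of mesangial cells, pericytes and smooth muscle were above 0, with a median of 0.19, and the myosin kinase gene Mylk had a change of 0.20 ± 0.07. Eng, an endothelial coreceptor of TGF-beta, had 9.94 at 23 weeks and 9.65 at 16 weeks as medians (0.25 ± 0.08, p = 0.00327).

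A measure of the arrays moved with these lists. The spiked hybridization controls, added after RNA extraction, averaged 9.57 ± 0.18 at 23 weeks and 10.04 ± 0.36 at 16 weeks (exact two-sided permutation p = 0.000212, 0.000847 adjusted over 4 controls). At 16 weeks, replicate 4 stood at 10.92 and the other kidneys between 9.84 and 9.99. At 23 weeks, replicates 10 and 11 stood at 9.92 and 9.87, inside that range, and the others at 9.40 to 9.63. Replicate 4 was also the lowest 16-week kidney for Spry1 (8.04) and Bgn (9.93), though not for Cx3cl1. With them as a covariate the matrix median was -0.083 with 10 of 28 above 0, the mesangial median 0.032, and the changes of Spry1, Cx3cl1 and Bgn 0.08, 0.07 and 0.23. Under that covariate Igkc stood at 2.89 (adjusted p = 0.0163), Jchain at 2.50 (0.039) and Igha at 1.94 (0.229). The controls' part in the shift of the matrix genes was not tested further.

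Early response genes ran the other way. These transcription factors and phosphatases are switched on within minutes of a stimulus and their transcripts decay quickly. Of 14 measured members 13 were below 0, 9 at an unadjusted p under 0.05 (2.95% of all genes), with a median of -0.44 and none past the adjusted threshold. Fos, a subunit of the AP-1 transcription factor, ran 5.68, 6.18 and 6.58 at 23 weeks against 5.94, 8.44 and 9.81 at 16 weeks. Its change was -1.89 ± 0.47 (adjusted p = 0.42). The other members of that size were Egr1, a zinc finger factor (-1.69 ± 0.50), and Dusp1, a phosphatase that switches off MAP kinases (-1.11 ± 0.32).

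The 16-week kidneys were unlike one another for these genes, and also over the whole array. For each pair of arrays, the median absolute difference over all genes was taken. Pairs of an RA5 kidney (replicates 5 to 8) with one of replicates 1 to 3 had a median of 0.163 (0.151 to 0.173). Pairs of a 23-week with a 16-week kidney had 0.132 (0.0822 to 0.247), and pairs within the 23-week group 0.122 (0.0681 to 0.205). A wide spread over the whole array was thus not particular to the 16-week group. Fos stood at 6.42, 5.94 and 6.06 in replicates 1 to 3, at 7.71 in replicate 4 and at 9.81, 9.16, 9.24 and 9.57 in the RA5 kidneys, replicates 5 to 8. Egr1 stood at 7.28, 7.77 and 7.30 in replicates 1 to 3 and between 10.63 and 11.18 in the RA5 kidneys, against 7.02 to 8.67 at 23 weeks. The stress-induced gene Gadd45g and Zfp36, whose protein speeds the decay of AU-rich transcripts, were also highest in replicates 4 to 8, at 9.80 to 10.79 and 9.92 to 10.42, but replicate 3 stood close to them for Gadd45g, at 9.76, against 8.49 and 8.44 in replicates 1 and 2. Zfp36 was 9.41 in replicate 3, above every 23-week kidney. The 1 onset kidney with stem RA5 had Fos at 8.64, the highest of the 6 onset kidneys. For Egr1 the highest onset kidney was replicate 5 (stem Q9) at 10.20, with the RA5 kidney at 10.10. The 36-week kidneys ran from 6.17 to 10.32 for Fos and from 7.60 to 11.75 for Egr1. Both upper ends belonged to replicate 3 (stem Clair) and lay above every RA5 kidney. Replicates 1 to 3 were chosen for leaving out with their values known, so the larger difference without them follows in part from that choice. Without them, 6 of the 14 members passed the test downward, where 17 genes (0.103%) did so in all, and Fos differed by -3.00 (adjusted p = 0.000303). Over all settings the adjusted p of Fos ran from 2.30e-06 to 0.9999. With title stem as a fixed term Fos differed by -1.34 (adjusted p = 0.9999), and 6 of the 14 members were lower at an unadjusted p under 0.05, with 0 called.

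**Figure D4:**
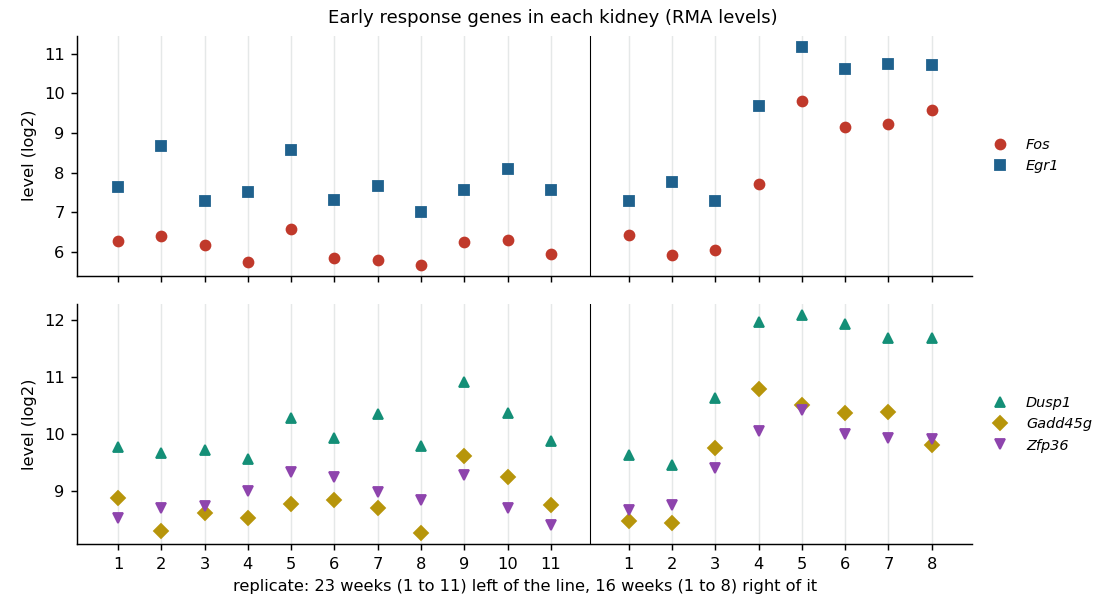
RMA level (log2) of 5 early response genes in each kidney, with the 11 kidneys at 23 weeks left of the line and the 8 at 16 weeks right of it. Fos stays between 5.68 and 6.58 at 23 weeks and in 16-week replicates 1 to 3 near that range, and reaches 9.16 to 9.81 in 16-week replicates 5 to 8.

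Promoters of 12 of the 14 members were in the RefSeq table (GRCm38.p6), and the 250 bases before each start were searched on both strands for the cyclic AMP response element TGACGTCA and the CArG box of serum response factor. The first was found in 2 of 12 (Dusp1 and Btg2), against 1.62% of 27025 promoters, and the second in 1 of 12 (Zfp36), against 1.4%. The Fos window held neither in these letters. The Dusp1 and Zfp36 windows are shown because they carry the matches, in capitals, at chr17:26508473-26508722 and chr7:28379229-28379478, both minus strand.
Dusp1: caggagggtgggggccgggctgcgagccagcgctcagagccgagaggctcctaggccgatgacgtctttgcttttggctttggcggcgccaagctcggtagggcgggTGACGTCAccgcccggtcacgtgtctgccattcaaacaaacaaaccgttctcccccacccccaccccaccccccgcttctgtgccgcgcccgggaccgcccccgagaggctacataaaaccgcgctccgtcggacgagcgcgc
Zfp36: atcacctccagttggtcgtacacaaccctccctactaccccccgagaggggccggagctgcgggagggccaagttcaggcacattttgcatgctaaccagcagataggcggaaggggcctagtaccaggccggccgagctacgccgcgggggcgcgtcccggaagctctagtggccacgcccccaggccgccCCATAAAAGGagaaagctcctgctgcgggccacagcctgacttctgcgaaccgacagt

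Clock genes, whose level follows the hour of the day, also differed among kidneys. Of 17 measured, 14 were below 0 with a median of -0.17, where 54.2% of all genes were above 0. At an unadjusted p under 0.05, 1 was higher (2.9% of all genes) and 2 were lower (2.95%). Arntl ran 6.40, 7.56 and 8.57 at 23 weeks against 6.30, 6.70 and 7.95 at 16 weeks (0.60 ± 0.26, p = 0.0261). Dbp, which peaks at the opposite time of day, ran 6.93, 8.95 and 10.51 at 23 weeks against 8.98, 9.96 and 10.19 at 16 weeks (-0.98 ± 0.43, p = 0.0287). Neither passed adjustment (0.82), and the groups overlapped for both. The kidney with the highest Arntl at 23 weeks, replicate 10, had the lowest Dbp.

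Adrenal and fat genes varied widely between kidneys of one age. The adrenal cortex makes steroids with enzymes such as Cyp11b1, and the medulla packs catecholamines with granins such as Chgb. Of 12 cortex genes 6 and of 9 medulla genes 5 were higher at an unadjusted p under 0.05 (2.9% of all genes), with medians of 0.92 and 0.40 and none past adjustment. In the fit of 2 ages alone they were 2 of 12 and 3 of 9 (6.36% of all genes). Cyp11b1 at 23 weeks was 9.27, 9.46, 9.86, 9.86, 9.96, 11.25 and 11.49 in replicates 1, 3, 6, 7, 9, 10 and 11. It was 5.31, 5.13, 5.19 and 6.25 in replicates 2, 4, 5 and 8. The 16-week kidneys lay between 5.64 and 7.80. The 23-week kidneys thus lay on both sides of the 16-week range, 7 above it and 3 below. Chgb followed with 7 above and 3 below a 16-week range of 4.78 to 6.26, reaching 11.07 at 23 weeks.

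Fat genes had 6 of 13 higher at an unadjusted p under 0.05 (2.9% of all genes) and 12 of 13 above 0 (54.2% of all genes), with a median of 0.45. Adipoq, the adipocyte hormone adiponectin, ran 9.22, 10.48 and 11.01 at 23 weeks against 6.57, 9.70 and 11.01 at 16 weeks, and the lowest values were those of 16-week replicates 5 and 6. Car3, a carbonic anhydrase abundant in fat, ran 9.99, 11.13 and 11.55 at 23 weeks against 8.23, 10.20 and 11.01 at 16 weeks (0.98 ± 0.43). Cidec, a lipid droplet protein, had a change of 0.78 ± 0.27 (p = 0.00696), and Lipe, the hormone-sensitive lipase, one of 0.48 ± 0.15 (p = 0.00301).

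Antibody and adrenal levels showed no detectable relation at 23 weeks. Replicates 1, 3, 10 and 11 were high for both, with Igkc at 13.62, 13.68, 12.90 and 13.42. The 4 kidneys at 23 weeks with the least Cyp11b1 had Igkc at 13.36, 13.55, 13.20 and 12.81, and the 3 kidneys with the least Igkc, replicates 6, 7 and 9, had Cyp11b1 at 9.86, 9.86 and 9.96. Within the 8 kidneys of the upper run, Igkc and Cyp11b1 had r = 0.05 and rho = 0.07 (exact permutation p = 0.886 and 0.882, adjusted 0.943 and 0.963). Igkc and Adipoq had r = -0.39 and rho = -0.26 (exact p = 0.332 and 0.536, adjusted 0.577 and 0.805). Without the farthest 2 kidneys these r were 0.46 and 0.10. At 16 weeks, over the 7 kidneys other than replicate 1, Igkc and Adipoq had r = 0.69 and rho = 0.82 (exact p = 0.0923 and 0.0341, adjusted 0.354 and 0.183), and Igkc and Cyp11b1 r = 0.58 and rho = 0.54 (exact p = 0.152 and 0.236, adjusted 0.364 and 0.518). Without the farthest 2 of these kidneys the r were 0.36 and 0.83. Over all 8 kidneys at 16 weeks, Igkc and Adipoq had r = 0.60 and rho = 0.88 (exact permutation p = 0.13 and 0.00724, adjusted 0.173 and 0.0217). Over the same 8, Igkc and Cyp11b1 had r = 0.30 and rho = 0.63 (exact p = 0.293 and 0.0999, adjusted 0.352 and 0.171). Over all 11 kidneys at 23 weeks r was -0.17 with Adipoq and -0.33 with Cyp11b1. With adrenal and fat scores as covariates in the fit over 4 groups, Igkc stood at 3.06 (adjusted p = 0.00131), Jchain at 2.52 (0.0115) and Igha at 2.15 (0.0159). In the fit of 2 ages alone the same covariates gave 2.79, 2.36 and 1.96, at adjusted p of 0.0516, 0.0573 and 0.0573.

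**Figure D5:**
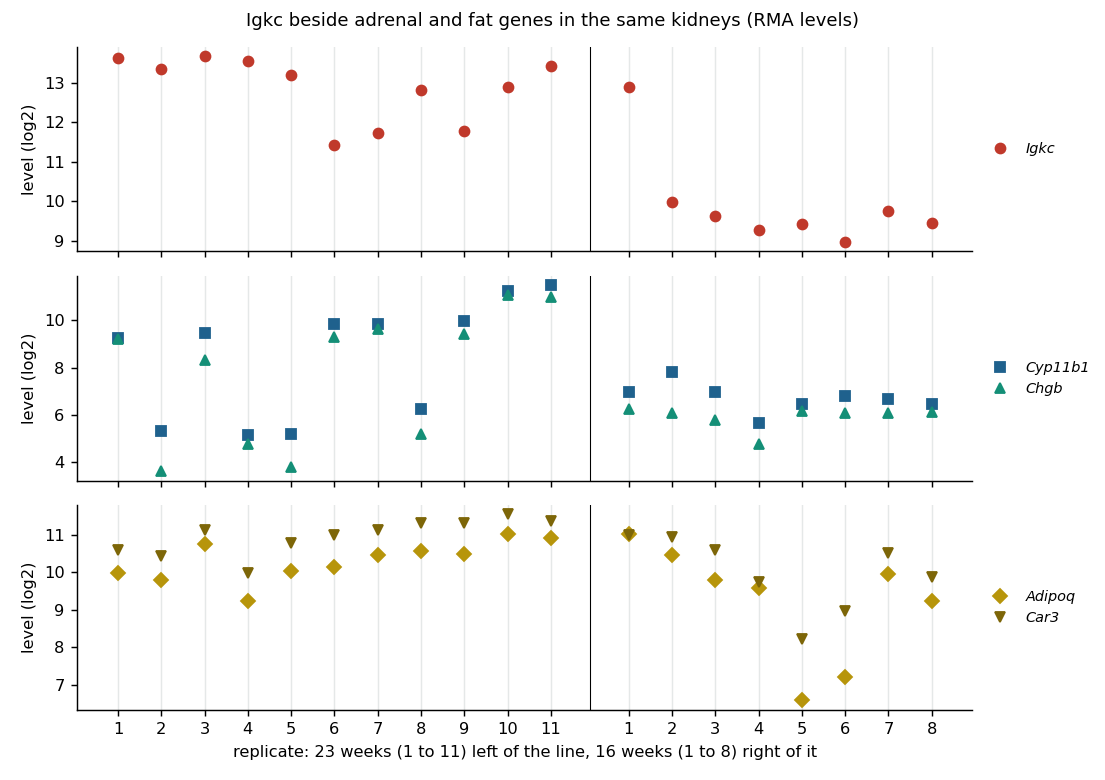
RMA level (log2) of Igkc (top), of the adrenal genes Cyp11b1 and Chgb (middle) and of the fat genes Adipoq and Car3 (bottom) in the same kidneys, 23 weeks left of the line and 16 weeks right. Replicates 2, 4, 5 and 8 at 23 weeks are low for Cyp11b1 (5.13 to 6.25) and keep Igkc at 12.81 to 13.55.

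No gene of the nephron and injury lists passed the test. Over all genes, 54.2% of changes were above 0. Of 24 proximal tubule genes 0 passed either threshold, with a median of -0.052, and of 11 thick ascending limb genes 10 were below 0 with a median of -0.098. All 23 genes of oxidative phosphorylation were below 0, with a median of -0.11. Of these, the respiratory chain genes Cox5a (-0.25 ± 0.10) and Cycs (-0.17 ± 0.08) were at an unadjusted p under 0.05 (2.95% of all genes). Cox5a stood at 12.60, 12.60 and 12.62 in 16-week replicates 1 to 3, inside the 23-week range, and at 12.89 to 13.35 in replicates 4 to 8. With the hybridization controls as a covariate the median of the oxidative phosphorylation list was 0.025, and with quantile normalization -0.047 with 5 of 23 above 0. Of 24 tubular injury genes 17 were above 0 with a median of 0.10 and 0 at either threshold. The injury genes Havcr1 and Lcn2 had changes of 0.15 ± 0.27 and 0.09 ± 0.48, and the complement gene C3 one of 0.36 ± 0.27. The slit diaphragm gene Nphs1 of podocytes, which form the filter, had medians of 7.07 at 23 weeks and 6.85 at 16 weeks (0.17 ± 0.14).

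Among metabolic lists, 22 genes of fatty acid oxidation had a median of 0.01, and 54.2% of all genes were above 0. Pdk4, a kinase that turns off pyruvate use in fasting, had medians of 8.72 at 23 weeks and 8.22 at 16 weeks (0.62 ± 0.25, p = 0.0174), and the peroxisomal thiolase gene Acaa1a 7.35 at 23 weeks and 7.94 at 16 weeks (-0.57 ± 0.19, p = 0.00522). In 16-week replicates 1 to 3 Acaa1a stood at 7.56, 7.29 and 7.53, inside the 23-week range, and in replicates 4 to 8 at 7.88 to 8.54. Of 14 cholesterol synthesis genes 12 were below 0 with a median of -0.11, and 2 were at an unadjusted p under 0.05 (2.95% of all genes), the squalene synthase gene Fdft1 (-0.27 ± 0.09) and Insig1, a brake on sterol synthesis (-0.48 ± 0.23). The glucocorticoid-induced gene Tsc22d3 had medians of 8.65 at 23 weeks and 9.43 at 16 weeks (-0.50 ± 0.23), while that list of 12 genes had a median of 0.02. Of 23 cell cycle genes 16 were below 0 and 0 passed either threshold, among them the replication genes Mcm6 (-0.29 ± 0.19) and Rrm2 (-0.20 ± 0.19).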

How the data were processed

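Values were the log2 expression levels that the authors deposited for NZB/W kidneys; per the submitters' processing notes they were made with RMA, whose version, array type and genome build are not given in the sources used here. The table held 16475 genes and 64 array controls. Of the genes, 16229 matched RefSeq (GRCm38.p6), which gave 2163 current names, and 246 kept theirs. The main fit was limma 3.58.1 (R 4.3.3; lmFit and eBayes) over 4 NZB/W groups, Benjamini-Hochberg over all genes, called at an adjusted p under 0.05; single values had exact permutation tests over 75582 regroupings (scipy 1.17.1). The fit was tested on simulated data for this comparison (16475 genes, independent arrays without stems): it called 61 of 67 genes changed by 0.5, 67 of 67 changed by 1 and 66 of 66 changed by 2 (log2), with 11 false calls. The changed genes were drawn at random from all genes, whose median standard error was 0.0722. Antibody chain genes had larger standard errors, and Ighm, with a change above 1, was not called. These rates therefore do not carry over to the antibody genes. Scanner files were not used here, so background and summary steps are the authors'; the number of arrays limits precision. The genes and the 38 lists (553 of 591 symbols measured) were chosen with earlier results of these data known. Named genes were those called in either fit, the 10 of smallest p in each direction, up to 2 per list and 10 fixed genes. Members of the antibody, adrenal, fat, clock and early response lists, and genes whose groups did not overlap, were named after their values were seen. Labels do not say that samples of a group came from separate mice, so every p-value covers only how much these samples vary. Replicate numbers are shared by the groups; correlations of same-numbered deviations ran from -0.416 to 0.106, so they share only a number.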

Additional observations from a re-analysis of the deposited data

Results flagged for a closer look

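Among the 8 kidneys at 16 weeks, replicate 1 stood far from the others for 9 antibody chain genes and for Pou2af1, a coactivator of their transcription. It held 12.90 for Igkc (next highest 9.97), 11.27 for Jchain (9.32), 11.78 for Igha (9.99) and 10.30 for Ighm (7.87). It also held 7.90 for Ighg1, 7.25 for Ighg2b, 8.96 for Ighg3, 8.81 for Iglc2, 6.79 for Igkv6-15 and 5.37 for Pou2af1. Each is a gap to the nearest kidney of over 0.526 of the group's range. Without that kidney the changes of Igkc, Jchain and Igha were 3.36, 2.63 and 2.23. Other single kidneys at 16 weeks that stood apart were replicate 2 for Irf4 (5.52), replicate 4 for Ap2b1 (8.38), Chgb (4.78) and Zfp189 (6.18), replicate 5 for Spata24 (5.99) and replicate 6 for Slc25a30 (9.19). Chance marks about 1 in 20 groups this way. The 23-week group, with 11 kidneys, was not examined by this rule.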

How the results depend on the processing

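Igkc, Jchain and Igha passed in the fits with quantile normalization, median centring, flagged genes alone, trend with robust moderation and the Gapdh, adrenal or fat covariates (3 or 4 calls each). The count was 19 with only the 2 ages, 3697 with array weights, 0 with a random block for title stem, 2 with title stem as a fixed block (chosen after seeing the data; neither an antibody gene), 33 without 16-week replicates 1 to 3 and 12 without replicates 1 to 4. Replicate number as a block, fitted to the 2 ages alone, left 1 call, Igkc. It had 1957 genes at an unadjusted p under 0.05, where the fit of the 2 ages without the block had 19 calls and 2200 genes. Leaving out 1 kidney from the fit over 4 groups gave 2 to 5 calls: 5 without 16-week replicate 3, and 2 without 16-week replicates 2, 4 or 6, where Igha was lost (adjusted p = 0.051, 0.061 and 0.071, of a range of 0.000183 to 0.9999). In fits of the 2 ages, chosen after seeing the data, the count was 81 without 16-week replicate 1, 2910 without 16-week replicates 1 to 3, 3575 with array weights and 1 with adrenal and fat covariates (Cx3cl1). The cause of these differences was not tested.

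With adrenal and fat covariates the list medians moved to 0.255 for mononuclear phagocytes, -0.243 for proximal tubule, 0.253 for tubular injury and -0.125 for fatty acid oxidation. Without 16-week replicates 1 to 3 they were 0.203 for B cells and -0.00493 for podocytes. Of 85 genes followed, 24 changed sign with title stem as a fixed block, among them all 3 that had passed: Igkc was -0.189, Jchain -1.49, Igha -1.48, Ighm -0.151, Ighg1 -0.858, Ighg2b -1.30, Ighg3 -0.411, Iglc1 -1.61, Iglc2 -1.60, Igkv6-15 -2.11, Mzb1 -1.37, Pou2af1 -1.80, Xbp1 -0.177, Sdc1 -0.0027, Irf4 -0.291, Arntl -0.062, Dbp 0.285, Lyz2 -0.548, H2-Ab1 -0.214, Cd37 -0.018, Tnfsf13b -0.336, Lcn2 -1.14, Havcr1 -0.401 and Slc34a1 0.0495. Under the other alternatives, 1 kidney left out aside, 10 changed sign, and none of these had passed. With the hybridization controls as covariate Ighg2c was -0.013, Sdc1 -0.021, Tnfrsf17 0.152, Lcn2 -0.336, Havcr1 -0.133 and Umod 0.031. With title stem as a block Irf4 was -0.025, Lcn2 -0.119 and Slc34a1 0.048, the last 0.066 with quantile normalization. Xbp1 was -0.050 with array weights, -0.0055 without 16-week replicates 1 to 3 and -0.041 without 1 to 4, and -0.0055 and -0.054 in the fits of the 2 ages without replicates 1 to 3 and with weights. Tnfrsf17 was 0.092 with array weights, 0.0037 with the replicate block (2 ages alone), 0.052 and 0.031 with the adrenal and Gapdh covariates, and 0.131 and 0.145 without 16-week replicates 1 to 3 and 1 to 4. In the fits of the 2 ages it was 0.033 without replicate 1, 0.131 without 1 to 3 and 0.090 with weights. Lcn2 was -0.031 with weights, and -0.045 with weights over the 2 ages, where Adipoq was -0.0026 with adrenal and fat covariates. With 1 kidney left out, Slc34a1 ran from -0.075 to 0.0048 and Tnfrsf17 from -0.036 to 0.041. Signal over background was not given, so weak genes have no stated limit.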
